A study of Neurospora crassa with 16 samples.

Results

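In 2 RNA-seq libraries of one Neurospora crassa strain, 179 of 7319 measured genes differed at least 2-fold in level between the libraries. They were chosen by these measured levels: a gene entered when it had 10 or more reads in each library and its CPM (its count scaled by the library's total on genes) differed by that fold in either direction. The rule left out 3 further genes past the fold, which are not described here. Of the 179 genes, 98 were higher in replicate 1 and 81 in replicate 2. With the left-out genes, 2.49% of measured genes were past the fold, 1.37% toward replicate 1 and 1.12% toward replicate 2. The same counts chose these genes, so their differences are a description with no test.

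Both libraries came from strain N5555, mating type a, in which lsd1 is deleted and replaced by the hygromycin marker (delta_lsd1::hph). Per the labels, germinated conidia were grown with shaking at 32 °C for 16 h, in Vogel's medium that held 1.5% sucrose. The labels number the libraries as replicates without saying whether they came from separate cultures, and 1 strain stands for the genotype. The series holds 16 samples of bisulfite sequencing, ChIP-seq and RNA-seq in wild type and lsd1 mutants, of which 14 were not analysed here. Wild type was read from the authors' deposited lists of genes that passed their comparison with Δlsd1, upward in one list and downward in the other. Those calls use the same Δlsd1 libraries, together with wild-type RNA libraries of strain N3752 that the design text places in another series and that were not analysed here. The labels give N3752 as mating type A.

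Neurospora crassa is a filamentous fungus that spreads as branching hyphae and forms conidia, its asexual spores, on aerial hyphae. Many of its genes follow the state of the culture: carbon source and glucose repression set the genes for polysaccharide breakdown, sulphur or phosphate shortage sets permeases and scavenging enzymes, and development sets the conidiation genes. LSD1 is a histone demethylase, and the study asked how its loss affects heterochromatin, the condensed chromatin marked by H3K9 methylation and, in this fungus, DNA methylation. In RNA from a whole culture, fewer cells of a kind and less RNA per cell cannot be told apart.

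The libraries were of similar depth, with 7017726 reads on genes in replicate 1 and 6797672 in replicate 2. The deleted gene was taken to be NCU09120, a match that neither the files nor the reference table states. It had 41 and 65 reads, a log2 ratio of 0.71 toward replicate 2. In the authors' deposited table of lower genes its mean was 88.7 normalised counts in Δlsd1 and 675 in wild type, a log2 fold change of -2.93. Reads outside genes made up 12.3% and 12.7% of all counted reads, and reads aligned to several places 3.74% and 3.38%. The 10 genes with most reads took 17.6% of gene reads in replicate 1 and 19.8% in replicate 2, and the part of this in the differences below was not tested. Intervals given below are 95% Clopper-Pearson intervals on the split of a gene's reads, and cover counting error only.

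**Figure D1:**
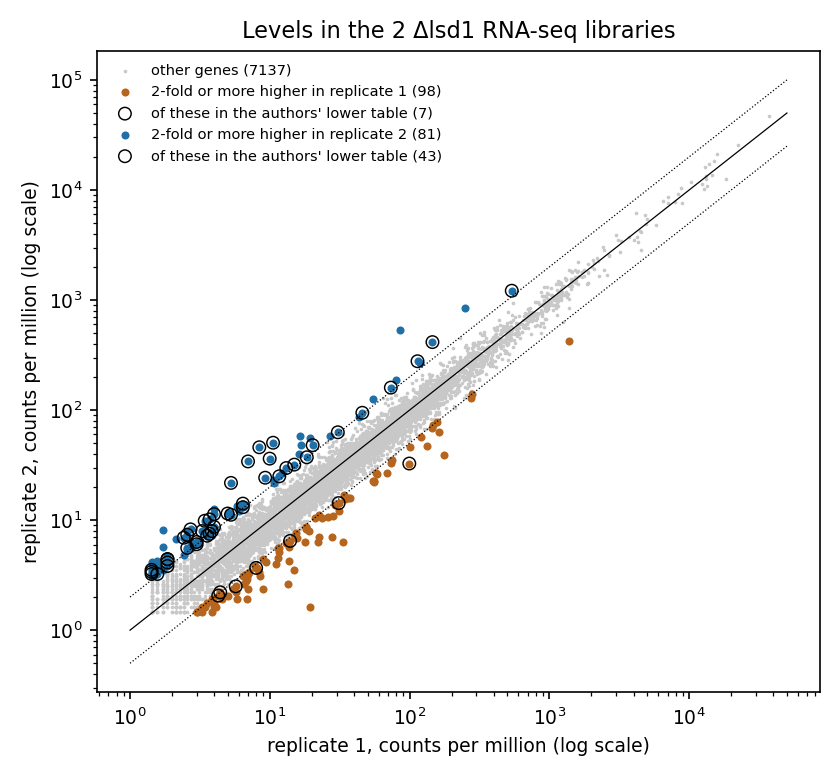
Level of each gene in replicate 1 (x axis) and replicate 2 (y axis), in CPM on log scales; dotted lines mark 2-fold. Brown points are the 98 genes higher in replicate 1, blue points the 81 higher in replicate 2, and black rings the 7 and 43 of them that are in the authors' table of lower genes.

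The differing genes were mostly weakly read. Their mean level over both libraries had a median of 8.38 CPM and a range of 2.23 to 907 CPM, against a median of 26.8 CPM over all measured genes. In one of the libraries, 59 of the 179 had fewer than 20 reads. The counting interval of the ratio left out equality for 171 of them and lay wholly past 2-fold for 37, namely 19 higher in replicate 1 and 18 in replicate 2. Together the 98 genes took 0.470% of gene reads in replicate 1 and 0.182% in replicate 2, and the 81 genes 0.198% and 0.533%. The median log2 ratio of replicate 2 over replicate 1 was -0.08 over all measured genes, so scaling by gene totals placed the bulk of genes slightly toward replicate 1. With edgeR's TMM scaling 75 genes were higher in replicate 1 and 111 in replicate 2, and with DESeq2's size factors 74 and 111. The share higher in replicate 1 was thus 54.7% by gene totals, 40.3% by TMM and 40.0% by DESeq2's size factors. Both scalings moved every log2 ratio toward replicate 2, by 0.073 with TMM and 0.077 with DESeq2's size factors. All 81 genes higher in replicate 2 therefore had to stay past the fold, and only the other direction could lose genes.

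At the threshold stood NCU06809 with 31 and 15 reads, NCU00984 with 147 and 71, and NCU02596 with 1976 and 954, the last genes inside toward replicate 1. Just outside on that side lay NCU08130, NCU03316 and NCU09403, at 1.9955-fold, 1.9932-fold and 1.9917-fold. Toward replicate 2 the last inside were NCU10458 (17 and 33 reads), NCU06970 (303 and 589), and, at equal ratios, NCU08366 (42 and 82) and NCU02406 (21 and 41). Just outside were NCU03583, NCU06607 and hda-3, a histone deacetylase gene, each at 1.9959-fold. These differences are finer than counting error at such depths.

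Genes higher in replicate 1 had log2 ratios down to -3.57, with a median of -1.17, and 5 of the 98 passed 4-fold. mig-2 (NCU07452, chromosome I, 576062 to 577864) stood first, with 135 reads against 11. This is 19.2 against 1.62 CPM, 11.9-fold with a counting interval of 6.44 to 24.4. NCU00848 on chromosome I had 233 and 43 reads (33.2 and 6.33 CPM), 5.25-fold higher in replicate 1 (3.78 to 7.45). NCU09491 on chromosome II had 94 and 18 reads, 5.06-fold (3.03 to 8.90). Neither carries a symbol in the reference table.

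NCU04482 (chromosome IV, 3213210 to 3215130) had 1236 reads in replicate 1 and 266 in replicate 2, 4.50-fold with a narrow interval of 3.94 to 5.16. The gene app (NCU04533) had 104 and 24 reads (14.8 and 3.53 CPM), with an interval of 2.67-fold to 6.84-fold. The next by size were NCU09210 (196 and 48 reads), NCU09734 (63 and 16) and NCU05142 (48 and 13), all between 3.58-fold and 3.96-fold. After NCU00850, described with its neighbours below, came NCU07287, the member with most reads of all. It had 9768 reads in replicate 1 and 2863 in replicate 2, or 1392 and 421 CPM, and its 3.30-fold difference had an interval of 3.17 to 3.45. NCU08228 (97 and 29 reads) and NCU04695 (158 and 48 reads) closed the 12 largest, at 3.24-fold and 3.19-fold. Counting error is thus small beside the difference for the well-read members, while the interval of NCU05142 began at 1.91-fold.

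**Figure D2:**
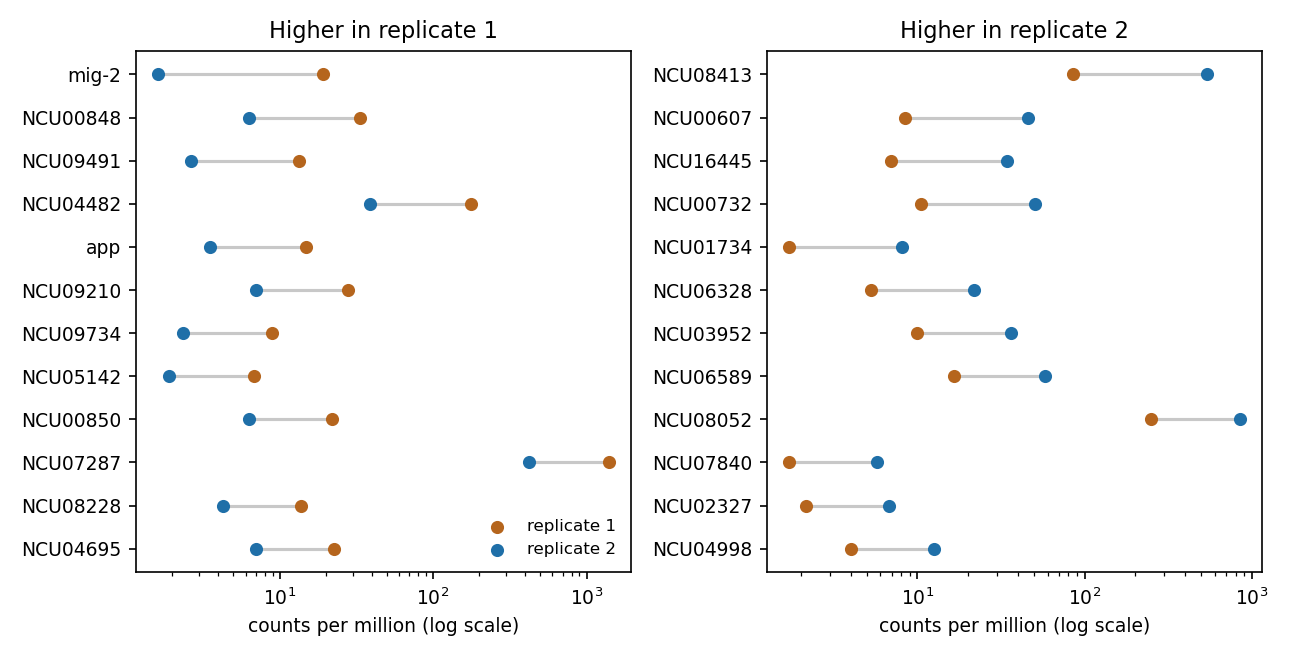
CPM (log scale) of the 12 genes with the largest ratio in each direction, replicate 1 in brown and replicate 2 in blue, joined by a line per gene. mig-2 has the widest gap on the left, from 1.62 to 19.2 CPM, and NCU08413 on the right, from 85.8 to 539 CPM.

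Of the 98 genes higher in replicate 1, 19 carry a symbol (19.4%), against 14.4% of measured genes. Antioxidant enzymes were among them. The catalase gene cat-3 had 485 and 183 reads (69.1 and 26.9 CPM), 2.57-fold with an interval of 2.16 to 3.06, and cat-4, also for a catalase, had 55 and 26 reads, 2.05-fold (1.26 to 3.40). The glutathione S-transferase gene gst-2 had 519 and 225 reads, 2.23-fold (1.91 to 2.62). Of 13 measured catalase and oxidative stress genes, those 2 catalase genes were past the fold toward replicate 1 and 0 toward replicate 2. Over all measured genes the shares were 1.37% and 1.12%. The list's median log2 ratio was -0.34, with 9 of 13 below 0. All measured genes had a median of -0.08, with only 40.2% above 0. The superoxide dismutase genes sod-1 and sod-2 had log2 ratios of -0.34 and -0.35, cat-1 -0.42 and cat-2 -0.57. The 4 genes above 0 were nox-1 at 0.12, nox-2 at 0.16, nor-1 at 0.15 and aod-5 at 0.02. gst-2 is not in this list.

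Single genes of other groups were also past the fold toward replicate 1. cyc-1, the cytochrome c gene, had 184 and 72 reads, 2.48-fold (1.88 to 3.30). All 29 measured genes of mitochondrial complex I were inside the fold, and 28 of them had a log2 ratio below 0, with a median of -0.33. The sulphate permease gene cys-14, which takes up sulphate when sulphur is short, had 845 and 387 reads, 2.11-fold (1.87 to 2.39). It was the only one of 17 measured sulphur control genes past the fold, and 15 of the 17 lay below 0, among them met-8 at -0.81 and cys-3, the sulphur regulator, at -0.27. acw-6, for an anchored cell wall protein, had 1929 and 878 reads, 2.13-fold (1.96 to 2.31). The other 24 of 25 measured cell wall and chitin genes were inside the fold, and 19 of the 25 lay above 0, with a list median of 0.15. For comparison, 40.2% of all measured genes lay above 0, and 1.37% were past the fold toward replicate 1.

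Among conidiation genes 1 of 17 measured passed the fold, rca-1, which encodes a transcription factor related to the Aspergillus nidulans conidiation regulator flbD. It had 386 reads in replicate 1 and 154 in replicate 2 (55.0 and 22.7 CPM), 2.43-fold with an interval of 2.01 to 2.95. Other development genes lay inside the fold toward replicate 1: con-6 at -0.94 on the log2 scale, con-10 at -0.79, and fl, the regulator fluffy that drives conidium formation, at -0.65. Others leaned toward replicate 2, such as con-8 at 0.31 and ccg-9 at 0.52, and 10 of the 17 lay above 0. Among all measured genes 40.2% lay above 0, and 1.37% were past the fold toward replicate 1. The list's summed level was 75949 CPM in replicate 1 and 89491 CPM in replicate 2, of which ccg-14 held 37093 and 47306 CPM. Its part in the differences between the libraries was not tested.

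The remaining members with a symbol on this side had few reads or differed little past the fold. qa-2, the catabolic dehydroquinase of quinate use, had 41 and 13 reads, 3.05-fold (1.60 to 6.21). The other measured quinate genes did not follow it: qa-Y, the quinate permease, had a log2 ratio of 0.60, qa-1S, the repressor, 0.34, and qa-1F, the activator, -0.32. gh31-3, a glycoside hydrolase gene of family 31, had 261 and 109 reads, 2.32-fold (1.85 to 2.93). gh61-3, for a polysaccharide monooxygenase, had 24 and 11 reads, and its interval of 0.997 to 4.78 included equality. cdt-2, a cellodextrin transporter gene, had 30 and 14 reads (1.07 to 4.24), and pks-3, a polyketide synthase gene, 23 and 10 (1.02 to 5.24). NCU05850, among the best-read members on this side, had 1139 and 425 reads, 2.60-fold (2.32 to 2.91). tca-11 had 524 and 239 reads, 2.12-fold. tca-13 had 408 and 177 reads, col-20 128 and 56, and mbp3 38 and 16, all between 2.21-fold and 2.30-fold. mig-4 had 1108 and 532 reads, 2.02-fold (1.82 to 2.24).

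Genes higher in replicate 2 had log2 ratios from 1.00 to 2.65, with a median of 1.20, and 6 of the 81 differed at least 4-fold. NCU08413 (chromosome II, 3978001 to 3979124) led with 602 reads in replicate 1 and 3662 in replicate 2, or 85.8 and 539 CPM. Its 6.28-fold difference had a counting interval of 5.76 to 6.86. NCU00607 had 59 and 312 reads, 5.46-fold (4.12 to 7.34), NCU16445 49 and 232, and NCU00732 74 and 343, the last at 4.79-fold (3.71 to 6.24). Those 3 lie on chromosome I and are not neighbours. NCU01734 had 12 and 55 reads, so its 4.73-fold difference had an interval of 2.50 to 9.71.

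Some well-read genes were among them. NCU08052 near the left end of chromosome I had 1742 and 5759 reads (248 and 847 CPM), 3.41-fold (3.23 to 3.60). NCU06132 on chromosome VII had the most reads on this side, 3774 and 8255, and differed 2.26-fold (2.17 to 2.35). NCU06589 had 116 and 393 reads, 3.50-fold (2.84 to 4.34). NCU07840 (12 and 39 reads) and NCU02327 (15 and 46) differed 3.36-fold and 3.17-fold, with intervals that began at 1.72 and 1.74.

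The 81 genes included 7 with a symbol (8.64%), and 4 of those are in the glycoside hydrolase list, which was made by symbol. gh61-9, a polysaccharide monooxygenase gene, had 833 and 1829 reads (119 and 269 CPM), 2.27-fold (2.09 to 2.46). gh10-3, for a xylanase family enzyme, had 18 and 50 reads, 2.87-fold (1.64 to 5.22). The family 3 genes gh3-4 and gh3-8, whose family holds beta-glucosidases, had 18 and 37 and 10 and 22 reads. Their intervals were 1.18 to 3.96 and 1.03 to 5.37. Of 61 measured glycoside hydrolase genes, these 4 were past the fold toward replicate 2 and gh31-3 and gh61-3 toward replicate 1. The shares over all measured genes were 1.12% toward replicate 2 and 1.37% toward replicate 1. The list's median was -0.09, with 28 above 0 and 33 below, beside -0.08 and 40.2% above 0 over all genes. Its summed level was 8452 and 8437 CPM in replicates 1 and 2.

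The other symbols toward replicate 2 were lacc, pyr-3 and spe-2. lacc, the laccase gene, had 65 and 165 reads, 2.62-fold (1.96 to 3.55). pyr-3 encodes the enzyme that starts pyrimidine synthesis and had 129 and 253 reads, 2.02-fold (1.63 to 2.52). spe-2, for the decarboxylase that supplies spermidine synthesis, had 13 and 26 reads, 2.06-fold (1.02 to 4.38).

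With the groups above included, 23 gene lists by symbol were read in all, holding 429 measured genes, and 14 lists held no member. The 14 members in a list were 10 higher in replicate 1 and 4 in replicate 2. Of all measured genes, 1.37% and 1.12% were past the fold in these directions. Among the lists without a member were those of ribosomal proteins (7 genes, median log2 ratio -0.02), heat shock (12, 0.09), histones (9, -0.11), chromatin modifiers (27, -0.11), nitrogen use (13, -0.05), RNA silencing (7, 0.11), kinases (67, -0.05) and meiosis and DNA repair (30, -0.09). The carotenoid and light list (15, 0.06) and those of mating (2, 0.13), acetate use (6, -0.30) and calcium (5, 0.11) had none either, nor had complex I. Of 61 amino acid synthesis genes, cys-14 alone was past the fold, and the list's median was -0.04. Of 5 measured phosphate genes none was past the fold, but their median was 0.46, with the phosphatase gene pho-3 at 0.84 and the regulator gene nuc-2 at 0.64. The sugar transport list (9 measured, median 0.02) held cdt-2, the secondary metabolism list (3 measured, 0.02) pks-3, and the quinate list (4 measured, 0.01) qa-2.

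The directions differed in how many of their genes the authors call lower in Δlsd1. Of the 81 genes higher in replicate 2, 43 are in the authors' deposited table of lower genes, 53.1% with an exact binomial interval of 41.7 to 64.3. Of the 98 higher in replicate 1, 7 are in it, 7.14% (2.92 to 14.2). Over all measured genes the share was 8.57%. The authors' deposited table of higher genes holds 0 of the 81 and 1 of the 98, mig-4, against 4.15% of measured genes. For mig-4 the authors' deposited table gave a log2 fold change of 2.19 with an adjusted p of 0.0594. No test of these shares was made, since the calls use the same Δlsd1 libraries and the genes are not independent. The intervals treat genes as independent draws, so they do not measure the difference between the directions.

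The share called lower was also larger among genes inside the fold that leaned toward replicate 2. In the authors' deposited table stood 6.77% of measured genes with a log2 ratio of 0 to 0.25, 14.3% at 0.25 to 0.5, 22.5% at 0.5 to 0.75, 40.9% at 0.75 to 1 and 53.7% at 1 or more. In the other direction the authors' deposited table held 5.19% at 0 to -0.25, 5.01% at -0.25 to -0.5, 7.78% at -0.5 to -0.75, 14.2% at -0.75 to -1 and 8.00% at -1 or less. The 627 measured genes called lower had a median log2 ratio of 0.14, and 59.3% of them lay above 0. For the 304 called higher the median was -0.12 with 36.8% above 0, and for the 6388 in neither table -0.09 with 38.5% above 0.

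**Figure D3:**
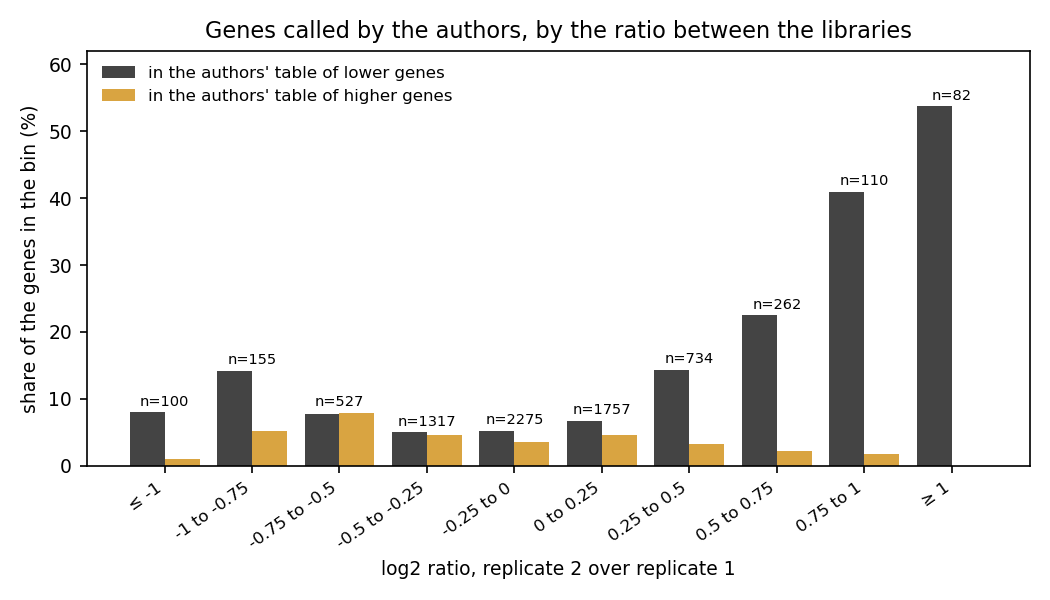
Share of measured genes in the authors' tables of lower (dark) and higher (yellow) genes, in bins of the log2 ratio of replicate 2 over replicate 1, with the number of genes above each pair of bars. The lower share climbs from 6.77% at 0 to 0.25 to 53.7% at 1 or more, where the higher share is 0; the outer bins include the 3 genes not described.

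Genes with few reads in these libraries are called lower more often, so the shares were also read by read number. That read number is the mean over the same Δlsd1 libraries that the calls use, so the ranges are not independent of the calls. Among genes with a mean of 30 to 100 reads, 18 of 27 members higher in replicate 2 are in the authors' deposited table of lower genes, 66.7%, against 2 of 42 higher in replicate 1 and 12.5% of all genes at that read number. At 100 to 300 reads the authors' deposited table holds 55.6% of 18 against 5.00% of 20, with 6.01% of all genes. At 300 reads or more it was 50.0% of 12 against 6.67% of 15 in the authors' deposited table, with 3.89% of all genes. At 10 to 30 reads the authors' deposited table holds 9 of 24 against 3 of 21, with 23.1% of all genes. The gap between the directions was present in each of these 4 ranges.

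Each library was then set alone against the wild-type level that the authors' deposited table gives, on the tables' own scale (a count plus 1, over the size factor recovered for that library). For the 43 lower genes higher in replicate 2, replicate 1 lay at a median log2 value of -2.41 against wild type in the authors' deposited table, from -5.71 to -1.68. Replicate 2 lay at a median of -1.01 against that level of the authors' deposited table, from -3.33 to -0.54. The call in the authors' deposited table needs a mean of both libraries at least 2-fold below wild type. Both libraries therefore had to lie below wild type in all 43. Replicate 1, the lower library by the rule, had to lie at least 2-fold below in all 43. Replicate 2 alone was at least 2-fold below in 22 and less than 2-fold below in 21. That replicate 2 is the nearer of the libraries also follows from the rule and the call. Inside the fold, where the rule does not fix it, replicate 2 was the higher and thereby the nearer library in 367 of 575 genes (63.8%) of the authors' deposited table of lower genes. On that scale it was the higher library in 45.5% of the 303 genes of the authors' deposited table of higher genes inside the fold. For the 6259 genes inside the fold in neither of the authors' deposited tables this was 48.2%. These calls use the same Δlsd1 libraries, and no test was made.

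The strongest of these genes were low in both libraries. NCU00732 had a wild-type mean of 5847 normalised counts in the authors' deposited table, against 117 in replicate 1 and 582 in replicate 2. It was thus 49.9-fold and 10.0-fold below wild type, and the authors' deposited table gave it an adjusted p of 1.03e-21. NCU00607 had 4909 for wild type by the authors' deposited table and 93.8 and 530 in the libraries, 52.4-fold and 9.26-fold below. NCU16445 had 1170 for wild type by the authors' deposited table, and 78.1 and 395 in the libraries.

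For others replicate 2 lay much nearer to wild type. NCU06328 had a wild-type mean of 375 in the authors' deposited table, against 59.4 in replicate 1 and 252 in replicate 2, so 6.31-fold and 1.48-fold below. Its adjusted p in the authors' deposited table was 0.115. NCU03952 had 612 for wild type by the authors' deposited table, and 111 and 418 in the libraries (adjusted p = 0.110). NCU06132 had 20306 for wild type by the authors' deposited table, and 5899 and 13980 in the libraries (adjusted p = 0.0800). gh10-3 stood at 165 for wild type by the authors' deposited table and at 29.7 and 86.4 in the libraries, with an adjusted p of 0.00300. Of the 43, 37 have an adjusted p under 0.05 in the authors' deposited table, which is 45.7% of the 81, against 4.08% of the 98 and 7.75% of measured genes.

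Of the members with a symbol toward replicate 2, the authors' deposited table of lower genes also holds pyr-3, lacc and spe-2. Each was below wild type in both libraries, as the call requires. pyr-3 had a wild-type mean of 1465 in the authors' deposited table, and 203 and 430 in the libraries, 7.21-fold and 3.41-fold below. lacc had 717 for wild type by the authors' deposited table, and 103 and 281 in the libraries. spe-2 had 136 for wild type by the authors' deposited table, and 21.9 and 45.7 in the libraries, with an adjusted p of 2.52e-06.

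Among the 7 lower genes that were higher in replicate 1, replicate 1 was the nearer library, which again follows from the rule and the call. Replicate 1 lay at a median of -0.86 and replicate 2 at -1.93 on the log2 scale, against wild type in the authors' deposited table. NCU03415 had 1572 for wild type by the authors' deposited table, 1092 in replicate 1 and 378 in replicate 2, with an adjusted p of 0.159. cdt-2 had 87.7 for wild type by the authors' deposited table, and 48.4 and 25.4 in the libraries. The others in the authors' deposited table were NCU00065, NCU05188, NCU09429, NCU07063 and NCU06809, and replicate 1 alone was at least 2-fold below wild type in 2 of the 7. mig-4, higher than wild type, had 288 for wild type by the authors' deposited table against 1733 and 903 in the libraries.

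**Figure D4:**
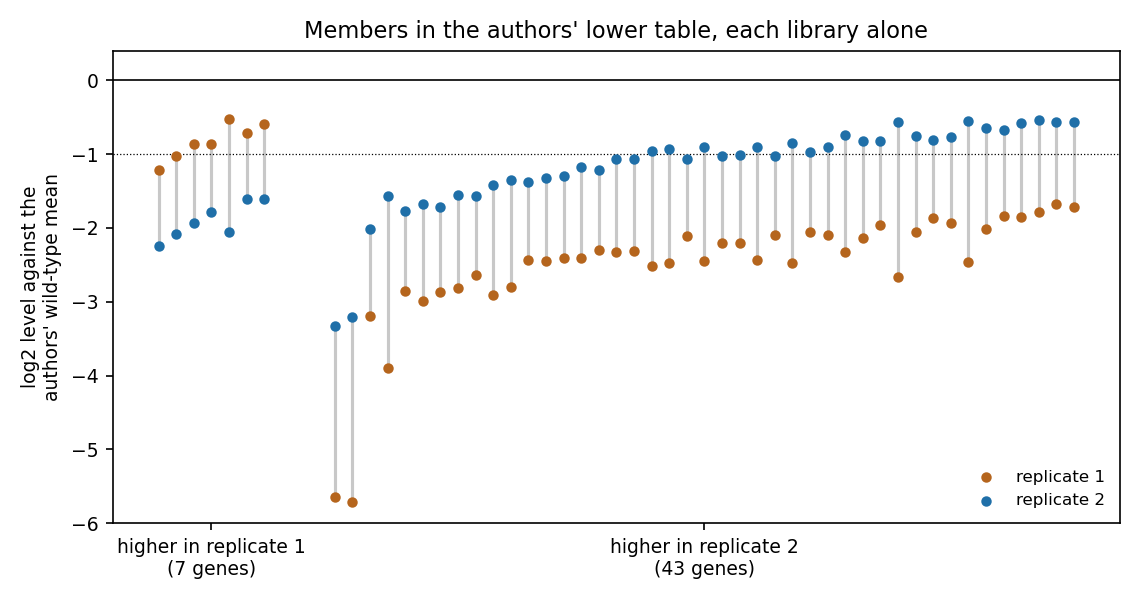
Log2 level of each library alone against wild type in the authors' tables (y axis) for the 7 and 43 members in the table of lower genes, 1 line per gene, ordered by the authors' fold change. Replicate 1 is brown and replicate 2 blue, the dotted line marks 2-fold below wild type, and 21 of the 43 blue points lie above it.

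Of 9722 pairs of neighbouring counted genes, 8 held members of the same direction and 0 held members of opposite directions. No expected number was computed, and the 9722 include pairs with genes too weakly read to be members. The 8 pairs form 7 runs of 15 genes, where neighbours are adjacent among the counted genes of assembly NC12. The longest run was NCU06328, NCU06327 and NCU06326 (chromosome IV, 2898675 to 2909306), all higher in replicate 2. NCU06327 had 1022 and 2817 reads, 2.85-fold (2.65 to 3.06), and NCU06326 559 and 1281 reads, 2.37-fold (2.14 to 2.62). NCU06329 and NCU06330 on one side, at log2 ratios of -0.69 and -0.34, and NCU06324 on the other, at -0.40, did not share the difference. NCU06325 next to the run had 0 and 1 reads.

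NCU07033 and NCU07034 on chromosome IV (4978926 to 4982667) differed alike, with 799 and 1888 reads in the first and 23 and 54 in the second, 2.44-fold and 2.42-fold. Their flanking genes NCU07032 and NCU07035 had log2 ratios of -0.02 and 0.16. gh10-3 and NCU04998, which had 28 and 85 reads, lie side by side near the right end of chromosome VI (4141983 to 4146414). NCU03950 (189 and 399 reads) and NCU03952 (70 and 246) form the fourth run toward replicate 2, on chromosome VI. Toward replicate 1 the runs were NCU00848 with NCU00847 (255 and 109 reads), NCU08372 (97 and 39) with NCU08371 (59 and 23), and NCU04862 (47 and 22) with pks-3. NCU00850, 155 and 43 reads and 3.49-fold (2.48 to 5.02), lies one gene from NCU00848, and NCU00849 between them had a log2 ratio of -0.43. Annotated spans did not overlap within any of the 7 runs. Those of NCU00850 and NCU00849 overlapped, as did those of NCU08371 and the non-member NCU08370, and since the strand setting of the counting is not known, values of these genes are uncertain where they overlap.

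**Figure D5:**
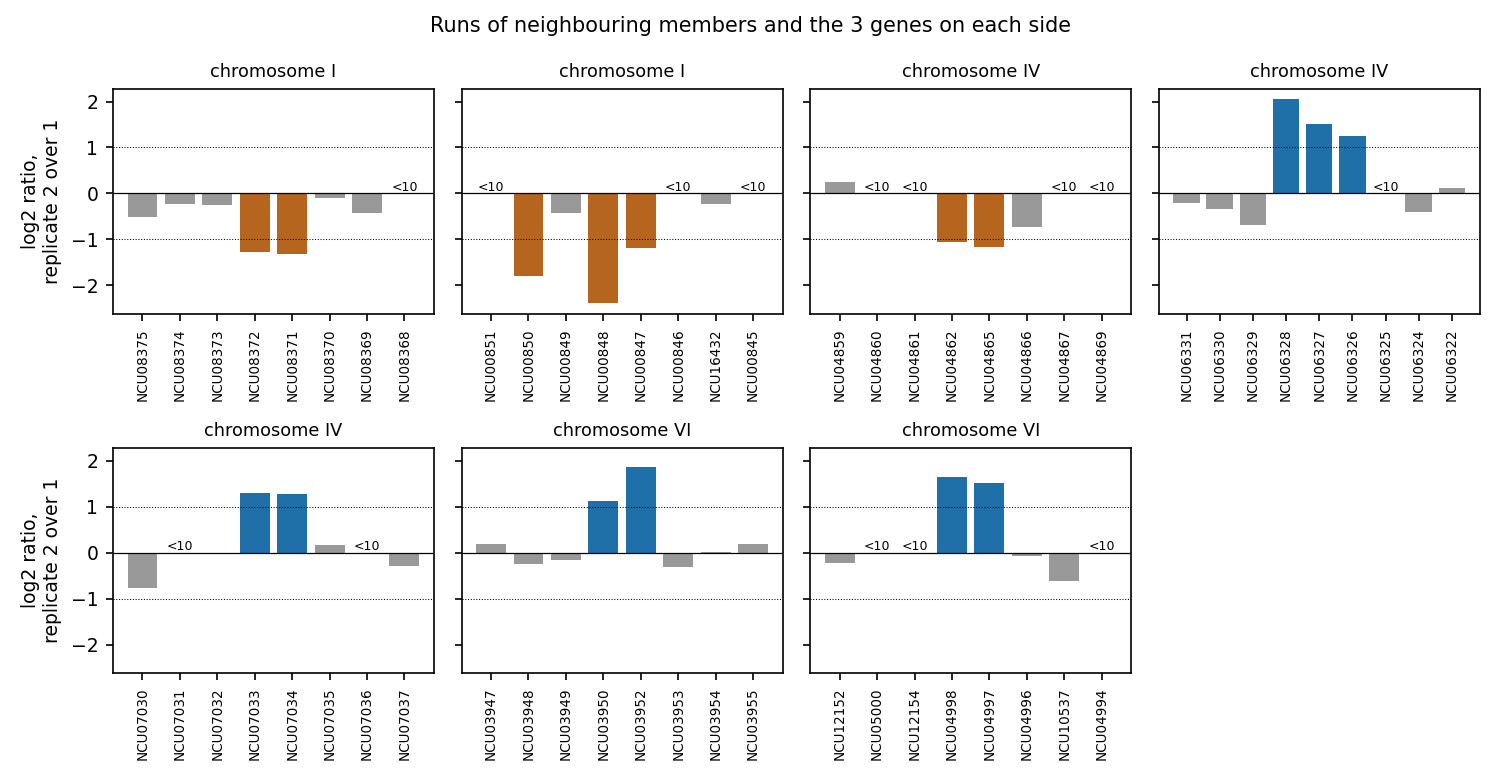
Log2 ratio of replicate 2 over replicate 1 (y axis) for the 7 runs of neighbouring members and the 3 counted genes on each side, in gene order; members are coloured, other genes grey, and genes under 10 reads in a library are marked. Most flanking genes lie between the dotted lines at 2-fold, and NCU00850 in the second panel is a member beyond them.

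Genes next to a member leaned the same way to a small extent. The 107 measured non-members beside a gene higher in replicate 2 had a median log2 ratio of 0.00, with 50.5% above 0, and the 134 beside a gene higher in replicate 1 had -0.14, with 32.1% above 0. Over all measured genes the values were -0.08 and 40.2%. No test of this lean was made.

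Members lay near chromosome ends more often than measured genes in all. Within 200 kb of the first or last annotated gene lay 12 of the 98 genes higher in replicate 1 (12.2%) and 12 of the 81 higher in replicate 2 (14.8%), against 6.53% of measured genes. NCU09491, gh10-3 and NCU08052 are among them. No test of these shares was made, and the members, mostly weakly read, were not compared with genes of like level. NCU09903 and NCU09906 at the left end of chromosome I, singled out after their values were seen, had 24 and 67 and 322 and 642 reads. Both are in the authors' deposited table of lower genes, at log2 fold changes of -1.54 and -1.75. By chromosome, III held 5.59% of members against 12.7% of measured genes, IV 20.1% against 15.0% and VII 14.0% against 9.71%. Chromosome I held 26.3% against 25.8%.

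The deposited regions, whose calling is not described in the sources used here, touched few members. Of the 179 genes 1 overlapped a region, NCU03202 on chromosome I (4897980 to 4899063), with 49 and 22 reads. That is 1.02% of the 98 genes higher in replicate 1 (0.0258 to 5.55), against 2.25% of measured genes. Toward replicate 2 it was 0 of the 81, with an upper bound of 4.45%. These intervals also treat genes as independent draws. Within 1 kb of a gene, regions lay beside 4 of the 98 (4.08%) and 2 of the 81 (2.47%), against 3.80% of measured genes. Gene length differed little, with median annotated spans of 2022 bp toward replicate 1, 2168 bp toward replicate 2 and 2417 bp over all measured genes.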

How the data were processed

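The deposited count files give raw read counts for 9730 genes per library. Bowtie2, DESeq2 and deepTools are named in the submitters' processing notes, while version, build, counting program and strand setting were not given in the sources used here. Closing rows that name no gene stayed out. Per the file headers, the deposited gene tables hold each group's mean normalised count (a signal). They also hold, as the authors computed them, the log2 fold change, the linear ratio and both the raw and the adjusted p-value. Size factors of 0.640 and 0.591 recovered the Δlsd1 mean of all 1060 tabled genes as the mean of (count + 1)/factor, with a largest relative error of 4.88e-15, which settles the direction. The deposited region list gives start and end positions (unit other) of 250 regions; supercontigs 1 to 7 were taken as chromosomes I to VII of NC12. Symbols and positions came from the RefSeq table, which matched 9729 of 9730 genes.

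CPM, ratios and shares were computed in Python 3.11.15 with scipy 1.17.1; scalings came from edgeR 4.0.16 and DESeq2 1.42.0 in R 4.3.3. No test was run, because both libraries are 1 group and chose the members. The rule and the counting intervals were tested on simulated data. Members and lists were chosen with earlier results of these data known. The genes named are, in each direction, the 12 largest ratios, up to 12 with a symbol, the 5 with most reads, the 5 largest in each authors' table, and all in a run, list or region. No promoter or protein sequences were used.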

Additional observations from a re-analysis of the deposited data

How the results depend on the processing

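The number of members depended on the read minimum and the fold. Toward replicate 1 and replicate 2, the counts of 98 and 81 became 37 and 29 with 50 or more reads in each library, 24 and 20 with 100 or more, 65 and 53 with 5 added to each count, and 150 and 145 with 10 summed reads and 1 added. They were 516 and 327 at 1.5-fold, 14 and 14 at 3-fold, and 19 and 18 where the counting interval lay past 2-fold. These changes follow from fewer or more genes passing. With TMM, DESeq2's size factors or all counted reads as the total, the counts stayed within 1.5 times.

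The share of genes higher in replicate 2 in the authors' deposited table of lower genes was 51.7% with 50 or more reads, 52.3% with TMM, 45.7% for rows with an adjusted p under 0.05 and 36.4% at 1.5-fold. For replicate 1 it lay between 4.08% and 9.88% under the same 4 settings, and was the smaller share in each. It was not computed under the others. The share of genes higher in replicate 1 in the authors' deposited table of higher genes, 1.02% for 1 gene, was 6.01% at 1.5-fold, 0 with TMM and 0 under the adjusted p. The share overlapping a region, 1.02%, was 0 with 50 or more reads. Leaving out a library moved the median log2 level of the lower genes against wild type between -2.41 and -1.01 for those higher in replicate 2 and between -1.93 and -0.86 for those higher in replicate 1. With both libraries the medians were -1.49 for the lower genes higher in replicate 2 and -1.25 for those higher in replicate 1. Without the added count they were -1.54 and -1.31. No paired analysis was possible because both libraries belong to 1 group. Promoter motifs, planned as a description, were not run. At 10 reads a library holds 1.42 to 1.47 CPM, so ratios of weaker genes could not be read.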
